A study of Mus musculus with 6 samples.

Results

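The CHD genes encode ATP-driven chromatin remodelling enzymes, and 9 of them, *Chd1* to *Chd9*, are known in the mouse. Rows of the RNA-seq table whose gene symbol is one of these 9 names were taken, which gave 8 genes of the 14647 in the table. *Chd5* was not analysed here. All 8 were among the 13547 genes that passed the filter on low values (0.5 RPKM or more on average). The RNA came from the pharyngeal arch region of mouse embryos at embryonic day (E) 9.5, on a C57Bl/6J background. Homozygous *Pax9*-/- embryos (*Pax9*-null, *n*=3) were compared with wild-type embryos (*n*=3), and each library was made from a single embryo. *Pax9* encodes a paired-box transcription factor of the pharyngeal endoderm, the null allele is carried by every cell of the embryo, and the dissected region also holds mesoderm, neural crest, endothelium, blood and some neural tissue and heart. The study names *Chd7* among the genes that were reduced in these same libraries, so that its call here is not independent evidence of its direction. The study also found *Chd7* reduced by qPCR of pharyngeal tissue and by in situ hybridisation in the pharyngeal endoderm. The question asked here is whether the fall of *Chd7* was particular to it or was shared by the other long genes of its family.

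CHD enzymes carry a pair of chromodomains, which bind histone tails, in front of a SNF2-type ATPase that slides or evicts nucleosomes. They fall into 3 subfamilies. *Chd1* and *Chd2* act at transcribed genes, *Chd3*, *Chd4* and *Chd5* are alternative motor subunits of the NuRD deacetylase complex, and *Chd6*, *Chd7*, *Chd8* and *Chd9* are the largest proteins of the family. Loss of 1 copy of human *CHD7* causes CHARGE syndrome, in which neural crest and pharyngeal arch artery derivatives are affected, and *Chd8* binds beta-catenin and represses its targets.

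The transcripts are long. The coding sequences of the 8 genes (GRCm38, GENCODE M21) ran from 5133 bases for *Chd1* to 8958 bases for *Chd7*, and their merged exons from 8019 bases for *Chd4* to 23148 bases for *Chd9*. *Chd7* (ENSMUSG00000041235) lies on chr4:8690406-8867659, on the plus strand, and its transcript with the most exons has 38. Its nearest relatives by subfamily are *Chd6* on chr2:160946978-161109075, *Chd8* on chr14:52198151-52257780 and *Chd9* on chr8:90828352-91054516. *Chd3* lies on chr11:69343273-69369406 and *Chd4* on chr6:125095981-125130591. *Chd1* is found on chr17:15704967-15772610 and *Chd2* on chr7:73426638-73541830. GC content, taken over the longest transcript, was 43.2% in *Chd1*, 45.1% in *Chd9*, 47.9% in *Chd2*, 48.0% in *Chd6*, 49.4% in *Chd8*, 51.4% in *Chd7*, 52.9% in *Chd4* and 56.1% in *Chd3*. No word of 50 bases was shared between the transcripts of any 2 CHD genes, so an exact match of this length could not belong to both. *Chd1*, *Chd3* and *Chd7* shared no such word with any other gene. The share was 0.17% in *Chd4*, 0.58% in *Chd6*, 2.41% in *Chd9*, 4.72% in *Chd8* and 18.0% in *Chd2*.

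Promoter sequences (RefSeq, GRCm38.p6) were matched for 5 of the 9 names, *Chd4*, *Chd5*, *Chd6*, *Chd8* and *Chd9*, and those for *Chd9* lie inside its annotated gene. The bases upstream of the gene are shown for *Chd4* and *Chd8*, the genes with a promoter here that were called lower in *Pax9*-null embryos. Each is written 5′ to 3′ on the strand of its gene, with every CpG in capitals.
Chd4, chr6:125095731-125095980, plus strand: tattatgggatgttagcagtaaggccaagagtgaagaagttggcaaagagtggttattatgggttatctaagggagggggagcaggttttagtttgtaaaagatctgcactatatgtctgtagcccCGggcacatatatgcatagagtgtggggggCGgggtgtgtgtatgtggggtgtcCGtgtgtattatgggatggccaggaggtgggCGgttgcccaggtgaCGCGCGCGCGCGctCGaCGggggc
Chd8, chr14:52257781-52258010, minus strand: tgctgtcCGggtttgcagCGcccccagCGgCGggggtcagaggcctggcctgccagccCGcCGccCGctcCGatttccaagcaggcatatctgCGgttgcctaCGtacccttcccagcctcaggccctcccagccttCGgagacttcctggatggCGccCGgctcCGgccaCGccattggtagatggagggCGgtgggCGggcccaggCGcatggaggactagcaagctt
The stretch before *Chd4* has 12 CpG in 250 bases and a GC content of 54.0%, and that before *Chd8* has 18 CpG in 230 bases and 69.1%, against a median of 6 CpG and 52.4% over the 32851 promoters of the table, each read over 250 bases. The letters GTCACGC, part of the sequence that paired domains bind, were looked for on both strands. They occur in neither stretch, and in 1.8% of all promoters. That says only that these letters are not in these windows.

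The libraries held 11666376 to 11865602 recovered reads in *Pax9*-null and 12115591 to 12706473 in wild-type embryos. The genotype labels were checked on *Pax9* itself, which had 99 to 123 reads in each wild-type library and 37 to 43 in each *Pax9*-null library. Its log2 change, *Pax9*-null minus wild-type, was −1.32 (adjusted *P*=0.0155 by limma). Libraries stood apart in 2 ways. Wild-type replicate 3 had a summed level of 8 cardiomyocyte markers of 75.6 RPKM, where the other libraries had 1213 to 1605 RPKM, and *Nppa* had no read there. Wild-type replicate 1 held the highest value of all 8 CHD genes, and genes of the longest decile by exon length lay there at a median of 0.29 above their mean over the libraries (log2), those of the shortest decile at −0.52. All 8 erythroid markers were higher in *Pax9*-null embryos, among them *Hbb-bh1*, which was called, with summed levels of 2636 to 4889 RPKM against 2391 to 2495 RPKM. All 9 neuronal markers were lower, 3 of them called (*Elavl3*, *Nefm* and *Cntn2*), with summed levels of 62.9 to 89.5 RPKM against 97.6 to 179.2 RPKM. Of 8 endothelial markers 7 were lower, 2 of them called (*Cdh5* and *Tie1*), with 47.3 to 64.9 RPKM against 54.0 to 101.4 RPKM. The part of these cells in the CHD results was not tested. In bulk tissue, fewer cells of a type and less RNA per cell cannot be told apart. Markers of the pharyngeal endoderm were present, with summed levels of 51.8 to 65.5 RPKM in *Pax9*-null and 53.0 to 61.7 RPKM in wild-type libraries. *Epcam* made up most of this sum, with 31.6 to 38.7 against 30.4 to 34.9 RPKM. Of the 8 markers 4 were lower, with a median log2 change of −0.10. Besides *Pax9* 1 of the 8 was called, *Sox17*, which was higher (log2 change 0.54, adjusted *P*=0.0695 by limma). *Pax1* was lower without overlap but was not called (−0.74, 0.101). Neural crest markers summed to 77.3 to 82.0 and 70.7 to 75.3 RPKM, without overlap, although 6 of the 8 were lower. Their median log2 change was −0.18. *Sox10* was called lower (−0.59, 0.0828) and *Twist1* higher (0.35, 0.0399). *Twist1* made up most of the sum, with 54.9 to 57.4 against 42.4 to 45.5 RPKM. Neural progenitor markers summed to 100.6 to 105.1 and 108.0 to 142.9 RPKM, again without overlap, but only 4 of the 8 were lower. Their median log2 change was 0.04. Only *Nes* was called, and it was lower (−1.01, 0.0148), with 24.8 to 32.1 against 46.9 to 65.2 RPKM, a large part of the sum.

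Levels are given as log2 RPKM, reads scaled to the length of the gene and to the size of the library, on a log2 scale, which allows genes of different length to be compared. *Chd4* was the most abundant CHD gene and *Chd9* the least. In wild-type embryos the mean level was 6.56 ± 0.34 (SD, *n*=3, as in all levels given here) for *Chd4*, 5.12 ± 0.17 for *Chd1*, 3.81 ± 0.38 for *Chd7* and 3.43 ± 0.62 for *Chd3*. It was 3.02 ± 0.34 for *Chd8*, 2.57 ± 0.26 for *Chd2*, 2.32 ± 0.35 for *Chd6* and 1.46 ± 0.28 for *Chd9*. *Chd4*, *Chd1* and *Chd7* were separated from each other in every wild-type library, and so were *Chd6* and *Chd9*. Neighbours from *Chd7* down to *Chd6* overlapped in their ranges. In *Pax9*-null embryos the order was *Chd4* (5.75 ± 0.27), *Chd1* (5.04 ± 0.11), *Chd7* (3.04 ± 0.26), *Chd8* (2.44 ± 0.21), *Chd2* (2.34 ± 0.22), *Chd3* (2.13 ± 0.29), *Chd6* (1.83 ± 0.17) and *Chd9* (1.12 ± 0.12). *Chd3* had thus moved from the fourth to the sixth place. The neighbours from *Chd8* to *Chd6* overlapped, and the other neighbours did not. For *Chd1* and *Chd8* the values contain gene lengths of 11917 and 16097 bases, found by search, where GENCODE M21 gives 8721 and 16523, which bears on their levels but not on their changes.

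**Figure D1:**
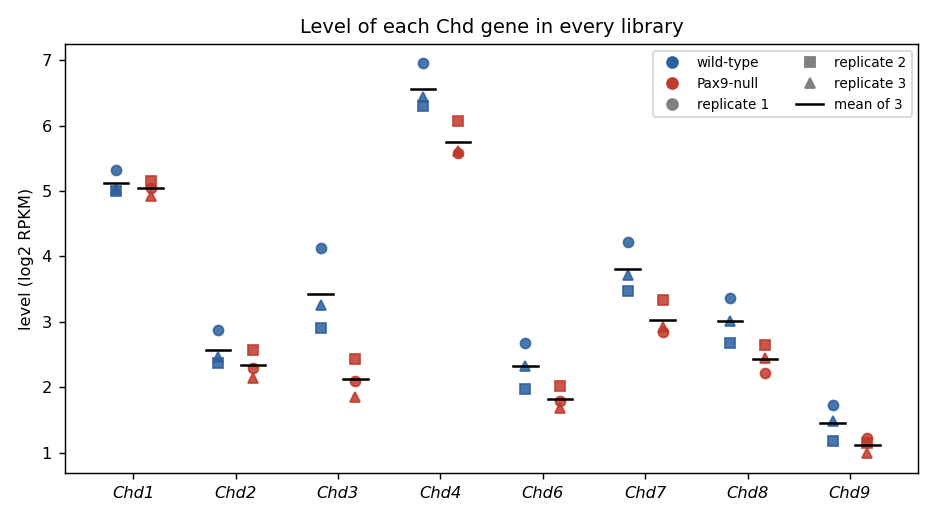
Level of each CHD gene (log2 RPKM) in every library, with wild-type embryos in blue, *Pax9*-null embryos in red, the shape of a point giving the replicate and the black line the mean of 3. Wild-type replicate 1 is the highest point of all 8 genes, and for *Chd3*, *Chd4*, *Chd7* and *Chd8* every red point lies below every blue point.

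Loss of *Pax9* went with lower RNA of several CHD genes and not of *Chd7* alone. The mean of all 8 was lower in *Pax9*-null embryos. Their median log2 change was −0.54, where the median of all 13547 tested genes was −0.001. *Chd3*, *Chd4*, *Chd7* and *Chd8* were called lower by limma (adjusted *P* of at most 0.1), which is 4 of 8 genes. Of all tested genes 12.0% were called lower and 14.7% higher. In the same 4 genes the highest *Pax9*-null value was under the lowest wild-type value, an order seen in 20.1% of all tested genes. The calls depended on 2 libraries more than the size of the changes did. None of the 8 genes was called by limma without *Pax9*-null replicate 1 or without *Pax9*-null replicate 3, although 3 and 4 of them were lower at an unadjusted *P* below 0.05. In these fits 0.295% and 0.162% of all genes were called lower, while the log2 changes of the 4 genes lay between −1.29 and −0.47 without *Pax9*-null replicate 1 and between −1.17 and −0.59 without *Pax9*-null replicate 3, where those of all 6 libraries lay between −1.30 and −0.58. They moved further without wild-type replicate 1, to −0.96 for *Chd3*, −0.62 for *Chd4*, −0.56 for *Chd7* and −0.41 for *Chd8*. All of these *P* values measure the spread between embryos of 1 genotype.

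*Chd7* was lower in all 3 *Pax9*-null embryos. Its levels were 2.85, 3.33 and 2.93 in *Pax9*-null replicates 1 to 3 and 4.22, 3.48 and 3.72 in wild-type replicates 1 to 3, from 1148 to 3266 reads. *Pax9*-null replicate 2 came close to wild-type replicate 2, without overlap, and the widest gap was to wild-type replicate 1. The log2 change was −0.77 ± 0.21 (standard error, with an adjusted *P*=0.0549 by limma and two-sided exact permutation *P*=0.1, the smallest that 3 against 3 allow), which leaves 58.7% of the wild-type level. Of all tested genes 2.5% had a lower change. The call was lost without *Pax9*-null replicate 1 (adjusted *P*=0.197) or 3 (0.152), where the log2 change was still −0.67 and −0.72, the range of adjusted *P* over 18 alternative settings being 0.035 to 0.197.

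Of its 3 closest relatives, *Chd8* was called lower and *Chd6* and *Chd9* were not. *Chd8* stood at 2.22, 2.64 and 2.44 in *Pax9*-null and at 3.36, 2.68 and 3.02 in wild-type embryos, from 868 to 2098 reads. *Pax9*-null replicate 2 and wild-type replicate 2 were almost level, and the genotypes did not overlap. The log2 change was −0.58 ± 0.19 (standard error, with an adjusted *P*=0.0805 by limma and exact permutation *P*=0.1), or 66.8% of wild-type. This call passed in 9 of 18 alternatives, where those of *Chd3*, *Chd4* and *Chd7* passed in 15, 15 and 14. It was lost with an adjusted *P* of 0.25 and 0.178 without *Pax9*-null replicates 1 and 3, where the log2 change was −0.47 and −0.59, and of 0.164 and 0.132 without wild-type replicates 1 and 3, where it was −0.41 and −0.58 (adjusted *P* of 0.0442 to 0.284 over the alternatives). An antisense gene, *Gm26590*, shares 953 exonic bases with *Chd8*, had 10 to 26 reads per library and was called higher (log2 change 0.96, adjusted *P*=0.0428 by limma), and reads of the pair cannot be told apart if strand was not used in counting.

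*Chd6*, whose loss in mice impairs motor coordination, had levels of 1.79, 2.01 and 1.69 against 2.67, 1.98 and 2.32, from 720 to 1546 reads. Its genotypes overlapped at replicate 2. The log2 change was −0.49 ± 0.20 (standard error, with an adjusted *P*=0.117 by limma and exact permutation *P*=0.2), and it passed the threshold in 1 of 17 alternatives, without wild-type replicate 2 (0.0564, range 0.0564 to 0.414). *Chd9*, the longest and least abundant member, had levels of 1.23, 1.15 and 0.99 against 1.73, 1.18 and 1.48, from 539 to 972 reads. Here too wild-type replicate 2 lay within the *Pax9*-null values. The log2 change was −0.34 ± 0.18 (standard error, with an adjusted *P*=0.226 by limma and exact permutation *P*=0.2) and did not pass in any of 17 alternatives (0.115 to 0.797).

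Both measured NuRD motors fell. *Chd3* showed the largest change of the 8 genes. Its levels were 2.10, 2.43 and 1.86 in *Pax9*-null and 4.13, 2.91 and 3.26 in wild-type embryos, from 359 to 1870 reads. Wild-type replicate 1 stood far above the other 5 libraries, and the genotypes did not overlap. The log2 change was −1.30 ± 0.30 (standard error, with an adjusted *P*=0.0428 by limma and exact permutation *P*=0.1), which leaves 40.6% of the wild-type level and is undercut by 0.0664% of all tested genes. Without wild-type replicate 1 the change was −0.96 (adjusted *P*=0.0444). It was still −1.29 and −1.17 without *Pax9*-null replicates 1 and 3, but did not pass (0.166 and 0.13), within a range of 0.0251 to 0.166 over the alternatives.

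*Chd4*, the main NuRD motor of most embryonic cells, had levels of 5.58, 6.07 and 5.61 in *Pax9*-null and 6.95, 6.31 and 6.44 in wild-type embryos. With 4444 to 12578 reads it was the most deeply covered member. *Pax9*-null replicate 2 was again the nearest to the wild-type libraries, without overlap. The log2 change was −0.81 ± 0.19 (standard error, with an adjusted *P*=0.0458 by limma and exact permutation *P*=0.1), or 57.1% of wild-type, and 1.93% of all tested genes had a lower change. It was −0.72 and −0.74 without *Pax9*-null replicates 1 and 3 and did not pass there (0.177 and 0.136), the adjusted *P* over the alternatives being 0.0271 to 0.177.

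*Chd1* and *Chd2* were not called. *Chd1*, a remodeller of transcribed chromatin that embryonic stem cells need to stay pluripotent, had levels of 5.04, 5.16 and 4.93 against 5.32, 5.0 and 5.03, from 4257 to 6041 reads. The genotypes overlapped, and without wild-type replicate 1 the difference had the opposite sign. Its log2 change was −0.076 ± 0.11 (standard error, with an adjusted *P*=0.656 by limma and exact permutation *P*=0.7). *Chd2* had levels of 2.30, 2.58 and 2.14 against 2.87, 2.37 and 2.47, from 737 to 1326 reads. They overlapped too, and the log2 change was −0.23 ± 0.17 (standard error, with an adjusted *P*=0.365 by limma and exact permutation *P*=0.4). *Chd2* shares 2628 exonic bases with *1810026B05Rik*, a noncoding gene on the same strand with 204 to 312 reads per library that was called higher (0.46, adjusted *P*=0.0858 by limma).

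**Figure D2:**
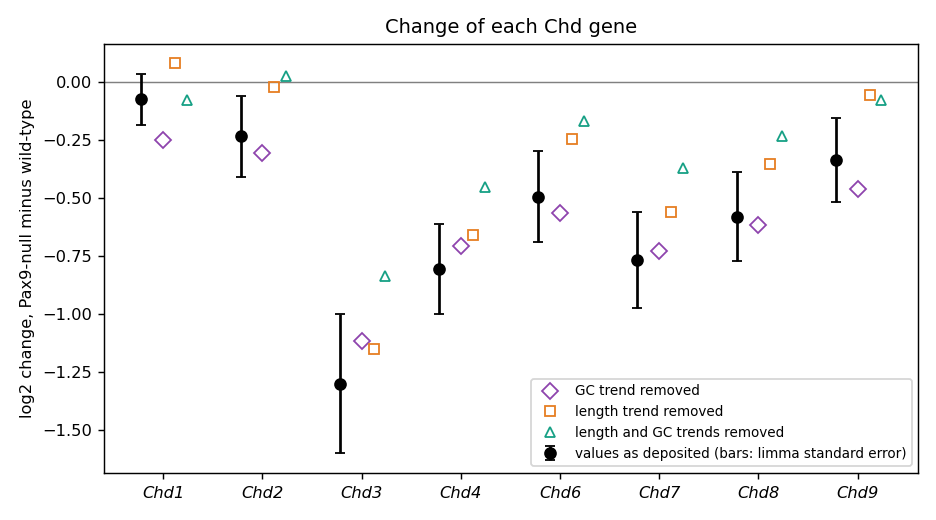
Log2 change of each CHD gene, *Pax9*-null minus wild-type, for the values as deposited (black, bars show the standard error of limma) and after the trends of each library with GC content, exon length or both had been removed. *Chd3* is the lowest point at −1.30, *Chd4* and *Chd7* lie side by side at −0.81 and −0.77, and *Chd1* is nearest to 0.

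The summed RPKM of the 8 genes was 107.6, 136.8 and 105.7 in *Pax9*-null and 226.9, 147.6 and 163.5 in wild-type embryos, so that the genotypes did not overlap. Shares within the sum differed as well. *Chd4* made up 44.5%, 49.1% and 46.3% of it in *Pax9*-null and 54.5%, 53.6% and 53.0% in wild-type embryos, whereas *Chd1* made up 30.6%, 26.1% and 28.8% against 17.6%, 21.7% and 20.0%. The *Chd4* share was lower and the *Chd1* share higher in every *Pax9*-null library. Within the subfamily of *Chd6* to *Chd9*, *Chd7* supplied 40.8%, 44.6% and 41.7% of the summed RPKM against 48.3%, 46.9% and 45.3%, again without overlap. The level of *Chd4* relative to *Chd3* was 11.2, 12.5 and 13.5 to 1 in *Pax9*-null and 7.08, 10.5 and 9.02 to 1 in wild-type embryos. No test beyond the order of the libraries was made on these shares.

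Whether *Chd7* fell by another amount than its paralogues was tested on the log2 ratio of *Chd7* to each of the 7 in every library, in a limma fit of the ratio of *Chd7* to all 13546 other tested genes. At the threshold of 0.1 the fall of *Chd7* was called different from the change of *Chd1* and of *Chd2*, and not from those of the other 5. *Chd7* fell by 0.69 more than *Chd1* on the log2 scale (standard error 0.30, 95% interval of the difference −1.31 to −0.073, adjusted *P*=0.0592 by limma). For *Chd2* the difference was −0.53 (standard error 0.27, interval −1.10 to 0.03, adjusted *P*=0.0974, unadjusted *P*=0.0624), and this interval includes 0. *Chd3*, which was not called, had a difference of the same size in the other direction (0.53, adjusted *P*=0.103 by limma). The threshold, and not the size of the difference, separates *Chd2* from *Chd3*. *Chd1* and *Chd2* are 2 of 7 paralogues, whereas *Chd7* differed from 64.7% of all tested genes by the same test, a larger share. Both calls were lost without *Pax9*-null replicate 1 (adjusted *P*=0.239 for *Chd1* and 0.304 for *Chd2*) or 3 (0.207 and 0.236) and without wild-type replicate 1 (0.105 and 0.15) or 3 (0.174 and 0.233), and that for *Chd2* also without *Pax9*-null replicate 2 (0.133). In the fits with 1 library left out the difference itself ran from −0.80 to −0.58 for *Chd1* and from −0.60 to −0.46 for *Chd2*. The alternatives gave adjusted *P* values of 4.5e-08 to 0.268 for *Chd1* and of 1.4e-05 to 0.304 for *Chd2*, the lowest coming from library weights.

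*Chd4* followed *Chd7* the most closely of the paralogues. The log2 ratio of *Chd7* to *Chd4* was −2.73, −2.74 and −2.68 in *Pax9*-null and −2.73, −2.83 and −2.72 in wild-type embryos. These values overlapped and spanned little, with means of −2.72 ± 0.030 and −2.76 ± 0.061. The difference was 0.04 (standard error 0.31, 95% interval −0.61 to 0.70, adjusted *P*=0.91 by limma, exact permutation *P*=0.6). The ratio to *Chd8* was 0.63, 0.69 and 0.49 against 0.86, 0.80 and 0.70, lower in every *Pax9*-null embryo, with a difference of −0.19 (interval −0.74 to 0.37, adjusted *P*=0.535). For *Chd6* it was 1.06, 1.32 and 1.24 against 1.55, 1.5 and 1.4, a difference of −0.27 (interval −0.84 to 0.30, adjusted *P*=0.373). The ratio to *Chd9* was 1.62, 2.18 and 1.94 against 2.5, 2.30 and 2.23, a difference of −0.43 (interval −1.05 to 0.19, adjusted *P*=0.203). *Chd3* went the other way, with ratios of 0.75, 0.90 and 1.07 against 0.10, 0.57 and 0.45, so that *Chd7* fell by less, by 0.53 on the log2 scale (interval −0.042 to 1.11, adjusted *P*=0.103). The ratios to all paralogues but *Chd4* did not overlap between genotypes (exact permutation *P*=0.1 in each, the smallest possible). The share of all tested genes whose ratio to *Chd7* did not overlap was not taken. This order therefore does not set the paralogues apart from other genes. The standard errors of 0.27 to 0.31 are wider than the spread within these ratios, since limma draws them towards the spread of all ratios, which have *Chd7* in common, and the intervals do not show that any pair changed alike.

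**Figure D3:**
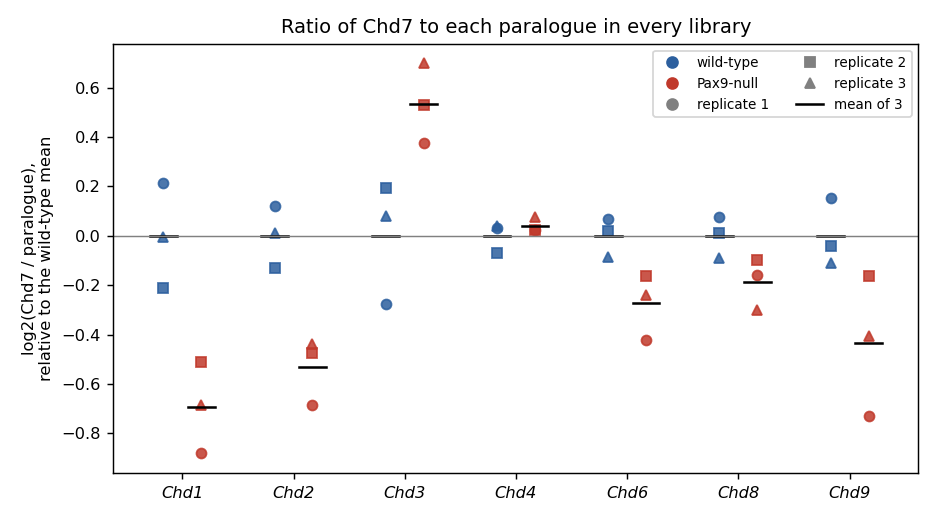
Log2 ratio of *Chd7* to each paralogue in every library, drawn relative to the wild-type mean of that ratio, with colours and shapes as in the plot of levels and the mean of 3 as a black line. Red and blue points mix for *Chd4*. The red points lie below the blue ones for *Chd1*, *Chd2*, *Chd6*, *Chd8* and *Chd9*, and above them for *Chd3*.

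The order of the changes within the family followed GC content and not exon length. Across the 8 genes, which share the same 6 libraries and are not independent, Spearman's rho of the log2 change was −0.98 with GC content and 0.48 with exon length, against −0.44 and −0.40 across the 13524 tested genes with an annotation. *Chd9*, with the longest exons, had 1 of the 3 smallest changes. *Chd4*, *Chd3* and *Chd1* have the shortest exons, and of these *Chd3* and *Chd4* had the largest changes of the 8 and *Chd1* the smallest. In the longest decile of all genes (9682 to 123179 bases), which holds *Chd2*, *Chd6*, *Chd7*, *Chd8* and *Chd9*, 20.2% were called lower and the median log2 change was −0.20. Of the genes of this decile, 6.13% had a lower change than *Chd7*, 16.1% than *Chd8*, 23.2% than *Chd6*, 36.0% than *Chd9* and 46.8% than *Chd2*. *Chd1*, *Chd3* and *Chd4* lie in the next decile (7359 to 9681 bases, median −0.14), where 0.074% of genes had a lower change than *Chd3*, 3.62% than *Chd4* and 57.3% than *Chd1*. Among genes of their own decile by GC content, 0.074% lay below *Chd3*, 2.22% below *Chd4*, 3.03% below *Chd7* and 6.21% below *Chd8*. All members lay on the low side of their GC decile, the highest being *Chd2* with 24.0% of genes below it.

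Removal of these trends from each library moved the changes of *Chd3*, *Chd4* and *Chd7* towards 0, whereas removal of the GC trend alone moved those of the other 5 away from 0. With the length trend alone removed, *Chd3* (−1.15), *Chd4* (−0.66) and *Chd7* (−0.56) were still called, with adjusted *P* values of 0.0355, 0.0364 and 0.0404, and *Chd8* (−0.35) had 0.101. With the GC trend alone removed the same 3 genes were called, at −1.12 (0.0899), −0.71 (0.0849) and −0.73 (0.0902). *Chd8* had a larger change than before, −0.62, and 0.102, and *Chd1* (−0.25), *Chd2* (−0.31), *Chd6* (−0.56) and *Chd9* (−0.46) were not called. At an unadjusted *P* below 0.05, 7 members were lower in this fit and 5 in that of the values as deposited. With both removed *Chd3* stood at −0.84 (0.125), *Chd4* at −0.45 (0.123), *Chd7* at −0.37 (0.143) and *Chd8* at −0.23 (0.284), and none was called by limma, although 3 members were lower at an unadjusted *P* below 0.05. In that fit 1.97% of all tested genes were called lower. The order of the members by GC content remained, with a rho of −0.93 across the 8 genes.

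**Figure D4:**
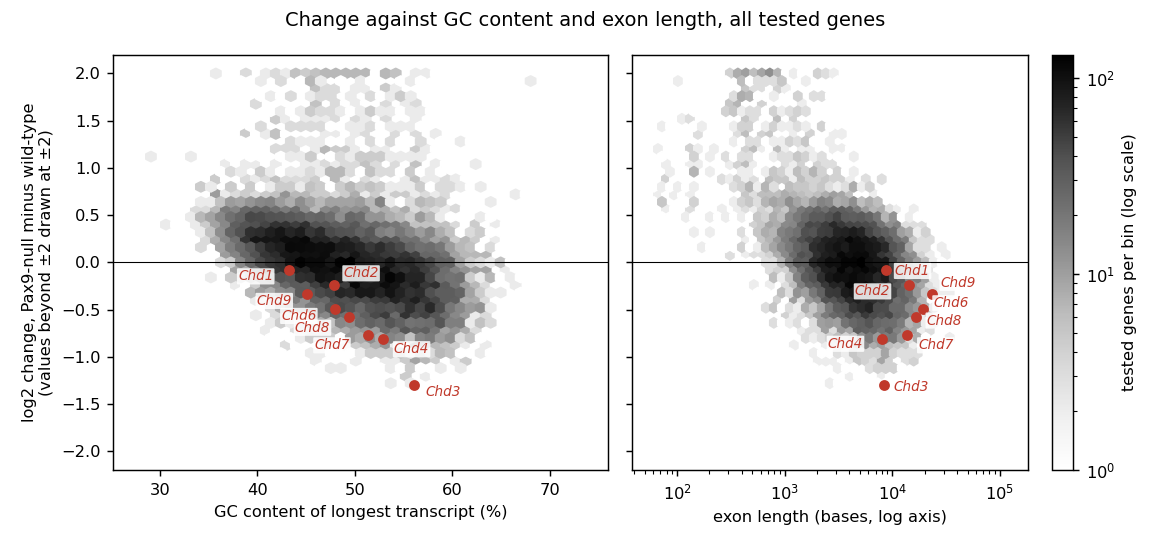
Log2 change of all tested genes (grey, darker for more genes per bin) and of the 8 CHD genes (red) against the GC content of the longest transcript (left, percent) and against exon length (right, bases on a log axis). The red points descend with GC content from *Chd1* at 43.2% to *Chd3* at 56.1%, and show no such descent with exon length.

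The members also moved together between embryos of 1 genotype. Their median deviation from their own means over the 6 libraries was −0.40, −0.085 and −0.35 (log2) in *Pax9*-null replicates 1 to 3 and 0.62, −0.064 and 0.26 in wild-type replicates 1 to 3. Replicate 2 of both genotypes was nearly level, and the other 4 libraries lay further apart. Genes of the longest decile deviated by −0.11, 0.008 and −0.20 against 0.29, −0.034 and 0.057, and there too replicate 2 of both genotypes lay close together. Genes of the highest decile by GC content deviated by −0.23, −0.078 and −0.023 against 0.068, 0.16 and 0.16. There wild-type replicate 2 was as high as wild-type replicate 3, and *Pax9*-null replicate 3 lay near 0. *Chd3*, the member with the highest GC content, lies in GC decile 9, so no member belongs to the highest one. The part of length or GC content in the order of the members was not tested. The lowest value of a member was found in *Pax9*-null replicate 3 for 5 genes and in *Pax9*-null replicate 1 for the other 3. The summed erythroid markers were highest in these 2 libraries (4449 RPKM in replicate 3 and 4889 RPKM in replicate 1), and 2636 RPKM in *Pax9*-null replicate 2. In wild-type replicates 1 to 3 they differed little, with 2391, 2495 and 2450 RPKM, although the CHD genes differed there. Summed endothelial markers were 52.1, 64.9 and 47.3 RPKM in *Pax9*-null replicates 1 to 3 and 101.4, 63.3 and 54.0 RPKM in wild-type replicates 1 to 3. The part of either cell type was not tested.

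**Figure D5:**
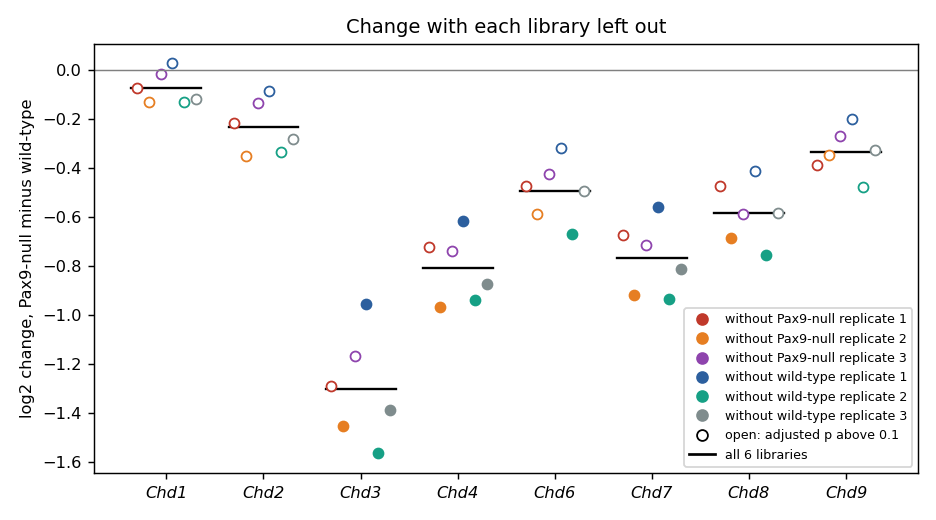
Log2 change of each CHD gene with each library left out in turn (coloured points) and with all 6 (black lines), where filled points have an adjusted *P* of at most 0.1 by limma. No point is filled without *Pax9*-null replicate 1 or 3, and without wild-type replicate 1 every change moves towards 0 or just past it, as in *Chd1*.

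The genes whose profile over the 6 libraries lay nearest to that of *Chd7* were ranked by the root mean square difference of centred log2 values. *Chd4* was the fourth of 13546 genes with a difference of 0.044. The other 4 of the first 5 were *Kif21b* (0.031), which encodes a kinesin motor, *Pxdn* (0.041), an extracellular matrix peroxidase, *Cpxm1* (0.044), a carboxypeptidase-like secreted protein, and *Slit3* (0.047), an axon guidance ligand. Their log2 changes lay between −0.82 and −0.75. Their exon lengths ran from 2432 to 12184 bases and their GC content from 52.7% to 56.8%. *Chd8* ranked 156th (0.12), *Chd6* 368th (0.16), *Chd9* 1677th (0.28), *Chd2* 1744th (0.29), *Chd3* 2233rd (0.32) and *Chd1* 3619th (0.38).

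Subunits of the complexes that CHD proteins join were called in part. Of 12 other NuRD subunits 3 were called lower and none higher by limma (1 was higher at an unadjusted *P* below 0.05), with a median log2 change of −0.07. This stands beside 12.0% of all tested genes called lower, 14.7% called higher and a median of −0.001. They were *Mbd3* (−0.50, adjusted *P*=0.0428 by limma), the methyl-CpG-binding-domain protein of the complex, *Gatad2a* (−0.38, 0.0468) and *Mta1* (−0.35, 0.0667). The most abundant subunit, the histone chaperone *Rbbp7*, had 0.24 (0.144), and *Hdac1* and *Hdac2*, the deacetylases, had −0.087 (0.58) and 0.23 (0.106). The summed level of these subunits was 637.5 to 650.6 RPKM in *Pax9*-null and 591.7 to 638.5 RPKM in wild-type libraries.

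Of 9 genes for proteins that bind Chd7 or Chd8, 8 were lower, with a median of −0.16. Only 1 was called lower, beside 12.0% of all tested genes, and none was called higher, beside 14.7%. The called gene was *Smarca4*, the BRG1 motor of the BAF and PBAF complexes, with levels of 4.51, 5.08 and 4.63 against 6.15, 5.45 and 5.54. Here too *Pax9*-null replicate 2 and wild-type replicate 2 were nearest to each other, without overlap, and the log2 change was −0.97 ± 0.21 (standard error, with an adjusted *P*=0.0414 by limma). *Ctnnb1*, which encodes beta-catenin and had the highest level of this list, had −0.20 (0.139). The PBAF subunits *Pbrm1*, *Arid2* and *Brd7* had −0.15, −0.27 and −0.16 (0.334, 0.133 and 0.303).

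Among 23 other genes for SNF2-type ATPases, which include *Smarca4*, 6 were called lower and 2 higher, with a median of −0.09. These counts stand beside 12.0% and 14.7% of all tested genes, in the same order. Besides *Smarca4* the lowest adjusted *P* values were those of *Rad54l2* (−0.55, 0.0459 by limma), *Ttf2* (−0.40, 0.0487), a transcription terminator, and *Ep400* (−0.54, 0.0695), which exchanges histone variants. The others called lower were *Smarcal1* (−0.40, 0.0769) and *Ercc6* (−0.39, 0.0811), both with roles in DNA repair. *Hells*, needed for DNA methylation (0.26, 0.0786), and *Smarcad1* (0.23, 0.0918) were called higher, and *Smarca5*, the ISWI motor with the highest level, had 0.10 (0.393).

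Of 11 genes that are known from other work to depend on *Chd7*, 2 were called lower and 2 higher, with a median of −0.096. *Trp53*, which encodes p53 (−0.45, adjusted *P*=0.0423 by limma), and *Gbx2*, a homeobox gene of the hindbrain and pharyngeal region (−0.43, 0.0807), were lower. *Twist1*, a neural crest and mesenchyme factor (0.35, 0.0399), which is also on the neural crest marker list, and *Otx2*, a forebrain and midbrain homeobox gene (0.77, 0.0583, from 28 to 61 reads), were higher. *Sox11*, the most abundant of the list, had −0.16 (0.373), and *Sox9*, *Fgf8* and *Neurog1* had −0.051 (0.817), 0.005 (0.995) and −0.003 (0.994). Over the 4 lists 15 of 54 genes (27.8%) were called in either direction, against 26.7% of all tested genes. The number fell to 0 with *Pax9*-null replicate 1 left out, to 1 with *Pax9*-null replicate 3 left out, to 8 without wild-type replicate 1 or 3, and to 0 with the length and GC trends removed. The share of all tested genes called in these fits was 2.22%, 1.29%, 13.3%, 15.8% and 3.85%, in the same order. In the fits with 0 listed genes called by limma, 12 and 13 had an unadjusted *P* below 0.05.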

How the data were processed

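RNA-seq of 3 *Pax9*-null and 3 wild-type pharyngeal arch regions at E9.5 was analysed. The sample labels name another protocol (sorted cells, Smart-seq2) than the study's methods (dissected tissue, first-strand specific TruSeq libraries), and the methods were followed. The authors trimmed adaptors, kept unique and non-redundant reads, sub-sampled the libraries, aligned them with STAR to GRCm38 and counted them with featureCounts at default parameters. The submitters' processing notes list Trimmomatic 0.32, STAR 2.5.1a and featureCounts 1.5.1. The deposited values are log2 RPKM made by the authors with a prior of about 0.5 reads, and 0 columns were left out. Reads were recovered from the values (82.7% whole within 0.05 reads at the GENCODE M21 length, the remaining genes by a search of lengths except 35). They are shown only as depth and measure counting precision.

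Values were tested as deposited in R 4.3.3 with limma 3.58.1 (lmFit, eBayes with a trend, two-sided, no covariates) for 13547 genes (mean RPKM of 0.5 or more), with Benjamini-Hochberg adjustment over all tested genes and a threshold of 0.1. The same fit was run on the ratio of *Chd7* to each other gene. Exact permutation tests used the difference of means. The script was tested on simulated data. Trends with length and GC content were removed per library with splines of 4 degrees of freedom. Genes named are the CHD genes, *Pax9*, the called genes of each list (at most 4 where more passed) with its most abundant gene, and the 5 genes nearest to *Chd7*. *Smarcal1*, *Ercc6*, *Hells*, *Smarcad1*, *Hdac1*, *Hdac2*, the PBAF subunits, *Sox9*, *Fgf8*, *Neurog1*, the genes overlapping a member and the named markers were added after their values were seen. Some of the markers are not reported singly here. The members and lists were chosen with earlier results of these data known.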

Additional observations from a re-analysis of the deposited data

How the results depend on the processing

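Of 142 changes of single members over the 18 alternatives, 119 kept their direction and their side of the threshold, 19 no longer passed, 1 newly passed and 3 changed direction. The direction changed for *Chd1* with the length trend removed (0.079) and when 1 library was left out (−0.13 to 0.025, above 0 without wild-type replicate 1), and for *Chd2* with the length and GC trends removed (0.027). Of 124 differences between *Chd7* and a paralogue, 1 changed direction (*Chd4* with the GC trend removed, −0.022). The GC trend alone was removed as an alternative chosen after seeing the data.

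The number of members called lower, 4 in the report, was 0 with the length and GC trends removed (3 at an unadjusted *P* below 0.05 by limma), 2 at a threshold of 0.05, and 0 to 5 with 1 library left out. The log2 change of *Chd7* was −0.37 with both trends removed (adjusted *P*=0.143 by limma), and −0.93 to −0.56 with 1 library left out. The number of paralogues from which *Chd7* differed, 2 in the report, was 1 without a filter on low values, 1 at a mean RPKM of at least 5, 1 without a trend of the variance, 6 with library weights (whose estimation stopped before convergence), 1 with both trends removed, 4 with the length trend removed, 0 with the GC trend removed (0 also at an unadjusted *P* below 0.05), 0 at a threshold of 0.05, and 0 to 3 with 1 library left out. The number of listed genes called, 15 in the report, was 0 with both trends removed (13 at an unadjusted *P* below 0.05), 9 with the GC trend removed, 7 at a threshold of 0.05, and 0 to 14 with 1 library left out. The cause was not tested. *Chd6* and *Chd9* give no value at a mean RPKM of at least 5. Centring and quantile normalization moved the median log2 change of all genes to 0.034 and −0.032.

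The labels do not say that the replicate numbers pair the embryos, and they were not treated as pairs. Deviations of same-numbered libraries correlated at −0.02, −0.173 and 0.26, and 2 of 6 libraries correlated best with their own number. So few libraries cannot exclude a pairing. With a replicate block, 2 members were called lower, *Chd7* had a log2 change of −0.77 (adjusted *P*=0.101 by limma), *Chd7* differed from 0 paralogues (0 also at an unadjusted *P* below 0.05), and 4 listed genes were called. Of all genes, 3.65% were called lower in that fit.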
